A study of Mus musculus with 6 samples.

Results

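The absorptive colonocyte transport genes are 36 genes that the surface epithelium of the colon uses to take up salt, water and short-chain fatty acids, together with its brush border proteins and the transcription factors of that cell. They were chosen by gene symbol, each symbol matched 1 row, and all 36 were found among the 54532 genes listed. Their levels were read in whole tumors of 3 Tmem173fl/fl and 3 Tmem173iΔmye mice in the AOM+DSS-L groups, in which azoxymethane (AOM), a carcinogen, and 3 cycles of dextran sodium sulfate (DSS), which injures the colon epithelium, were followed by tamoxifen. Tmem173 encodes STING, a sensor pathway protein of innate immunity. The gene carries loxP sites in all 6 mice. The Tmem173iΔmye mice also carry Lyz2-Creert2, a tamoxifen-inducible Cre made in myeloid cells, so the epithelial cells whose genes are described here are not the cells in which the allele is meant to be deleted. The labels give the genotypes as WT and CRE, the background is C57BL/6N, and the age and sex of these mice are not given in the sources used here. The comparison asks how the tumors differ when myeloid STING is removed after tumors have formed.

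A mature colonocyte exchanges luminal sodium for protons and luminal chloride for bicarbonate, with carbonic anhydrase supplying both ions, and water follows the salt. In the distal colon the epithelial sodium channel adds a second route for sodium that aldosterone controls. Deeper in the crypt, CFTR and its partners secrete chloride, and the peptide guanylin, acting on a receptor guanylyl cyclase, shifts the balance from absorption to secretion. In tumors of the colon epithelium, genes of the mature surface cell are commonly low.

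Tmem173 had 1748, 2911 and 1705 counts in Tmem173fl/fl replicates 1, 2 and 3. It had 2291, 2245 and 1953 counts in Tmem173iΔmye replicates 1, 2 and 3. In whole tumor RNA the groups overlapped only through Tmem173fl/fl replicate 2, the highest tumor. Tmem173fl/fl replicates 1 and 3 were below every Tmem173iΔmye tumor. Totals ranged from 15329810 to 16533732 counts per tumor. Of the 36 members, 35 reached the mean FPKM limit of 0.5 and entered a test over 16426 genes. FPKM counts fragments per kilobase of gene, scaled to library size, so levels can be compared between genes. Slc51a, the partner of Slc51b in the bile salt exporter of the basal membrane, had 2 to 7 counts per tumor and at most 0.14 FPKM, so no fold change was given for it.

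No member passed the test between the genotypes. Of the 35 members tested, 0 had an adjusted p under 0.05 by the quasi-likelihood test of edgeR, adjusted by Benjamini-Hochberg over all genes tested, and the same held for 0% of the 16426 genes. The smallest adjusted p of a member was 0.742. DESeq2, run on the same counts, had 28 genes and 0 members under that threshold. Without adjustment, 4 of 35 members had a p under 0.05, against 6.14% of all genes tested. Of these, Cftr and Vil1 were higher in Tmem173iΔmye tumors, against 3.23% of all genes that were higher with such a p. Scnn1b and Scnn1g were lower, against 2.9% of all genes that were lower with such a p. A log2 fold change of 1 or more in size in addition was found for 0 of 35 members and for 2.12% of all genes. The median log2 fold change of the members, here and throughout Tmem173iΔmye over Tmem173fl/fl, was -0.08 against -0.0042 for all genes tested, with 16 members above 0 and 19 below. In whole tumors, fewer cells of a type and less RNA per cell cannot be told apart.

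Compared per length, the member levels spanned a wide range. Atp1b1, the beta subunit of the sodium pump, and Ceacam1, an adhesion molecule of the apical membrane, had the highest mean levels over the 6 tumors, at 253 and 243 FPKM. Below them came Car1 and Vil1 at 149 FPKM each, Car2 and Cdhr5 at 129 each, Guca2a at 124 and Cdh17 at 119. From Car1 to Cdh17, neighbours in this order differed by less than their spread among tumors. At the other end stood Slc51b at 2.69 and Scnn1g at 1.47 FPKM. The colonic surface genes Car1, Slc26a3 and Aqp8 were present in every tumor, and of the genes that mark the small intestine, Lct, Sis, Fgf15 and Apoa4 were at or near 0. The list of 10 such genes still summed to 662 to 2609 CPM in Tmem173fl/fl and 541 to 1764 CPM in Tmem173iΔmye tumors, mostly from Lyz1 and Defa24, which Paneth cells make, and its part in the members' levels was not tested.

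**Figure D1:**
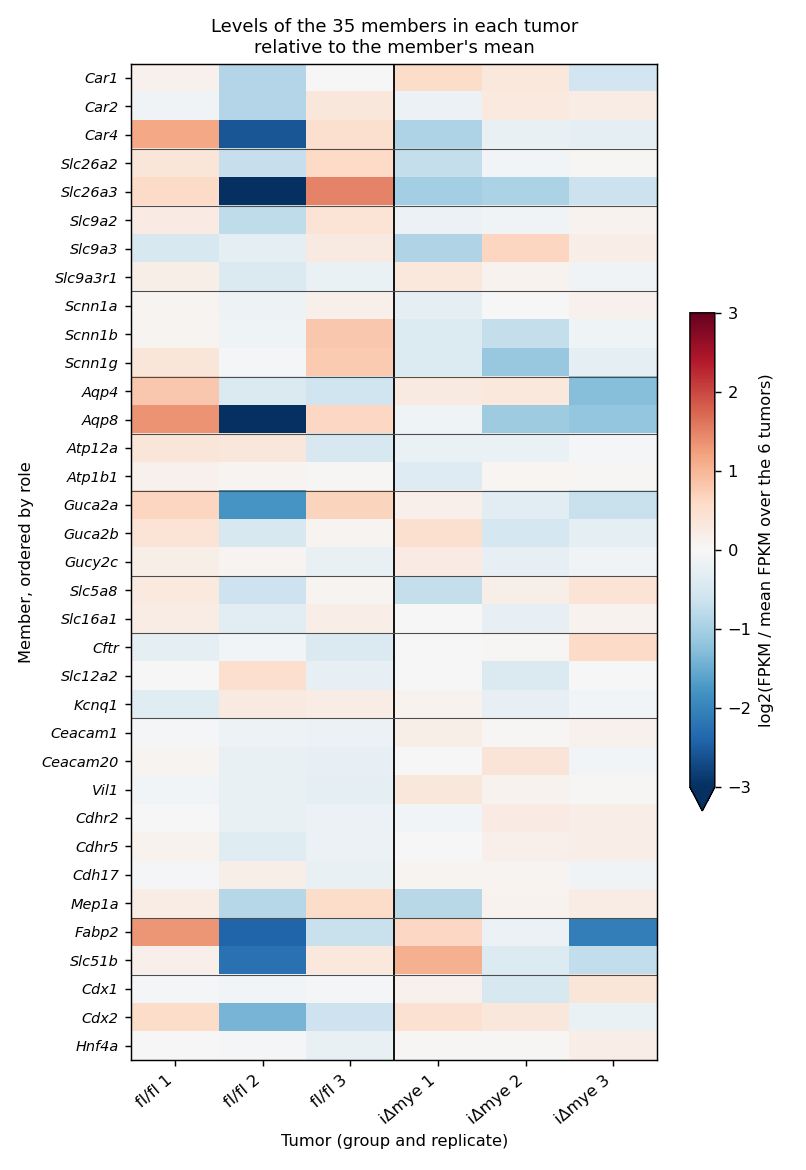
Levels of the 35 members tested (rows, ordered by role, with lines between roles) in each of the 6 tumors (columns), as the log2 of FPKM over the member's mean FPKM in the 6 tumors. The dark blue cells of Tmem173fl/fl replicate 2 at Car4, Slc26a3, Aqp8, Guca2a, Fabp2 and Slc51b show how far 1 tumor stood from the others in its own group.

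The members were most often lowest in 1 control tumor. Tmem173fl/fl replicate 2 held the lowest level of 15 of 35 members (42.9%), while over all genes tested it held the lowest level of 27.1%. It held the highest level of 3 members, Slc12a2, Kcnq1 and Cdh17, or 8.57%, against 26.6% of all genes. The members lowest there were Car1, Car2, Car4, Slc26a3, Slc9a2, Slc9a3r1, Aqp8, Guca2a, Slc16a1, Cdhr2, Cdhr5, Mep1a, Fabp2, Slc51b and Cdx2. The SD of log2(CPM + 1) was larger in Tmem173fl/fl than in Tmem173iΔmye tumors for 22 of 35 members (62.9%), against 61.3% of all genes tested. Because Tmem173fl/fl replicate 2 was lowest for many members, the fit was also made without it, as without each other tumor in turn. The geometric mean CPM of 10 pan-epithelial genes, shared by all epithelium, differed 1.10-fold between the highest and the lowest tumor. Of these 10 genes, 5 (50%) were also lowest in Tmem173fl/fl replicate 2.

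Slc26a3, the chloride-bicarbonate exchanger of the colonocyte apical membrane, had 9.98, 0.42 and 18.72 FPKM in Tmem173fl/fl replicates 1, 2 and 3. In Tmem173iΔmye replicates 1, 2 and 3 it had 3.30, 3.47 and 4.30 FPKM. The 3 Tmem173iΔmye tumors lay close together, between a pair of high control tumors and a single very low one, and the highest tumor had 44.6 times the level of the lowest. The log2 fold change was -1.40 (SE 0.94, adjusted p = 0.756 from edgeR). Slc26a2, the sulfate transporter of the same family, had a narrower range, with 14.25, 6.86 and 16.59 FPKM in Tmem173fl/fl and 6.69, 10.38 and 11.36 FPKM in Tmem173iΔmye tumors, and its log2 fold change was -0.41 (SE 0.34).

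Aqp8, a water channel of surface colonocytes, had the same shape, with 62.48, 1.40 and 37.72 FPKM in the Tmem173fl/fl and 22.30, 11.66 and 10.85 FPKM in the Tmem173iΔmye tumors. Its range was 44.8-fold, and its log2 fold change was -1.19 (SE 0.96). As with Slc26a3, no Tmem173iΔmye tumor reached either of the high controls, and none fell to the level of Tmem173fl/fl replicate 2. Aqp4, the other water channel of the list, did not share this order and had 18.87, 8.08 and 7.13 FPKM in Tmem173fl/fl and 12.97, 13.48 and 4.48 FPKM in Tmem173iΔmye tumors.

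The 3 carbonic anhydrases differed in their spread. Car4, anchored to the apical membrane, had 40.21, 3.06 and 25.21 FPKM in Tmem173fl/fl and 9.51, 15.55 and 14.62 FPKM in Tmem173iΔmye tumors, and its log2 fold change was -0.80 (SE 0.72). The cytosolic enzymes were higher in level and differed less: Car1 had 162.45, 80.71 and 147.66 FPKM in Tmem173fl/fl and 217.39, 186.71 and 99.88 FPKM in Tmem173iΔmye tumors. Its log2 fold change was 0.36 (SE 0.34). Car2 ranged from 70.01 to 163.94 FPKM in Tmem173fl/fl and from 114.46 to 158.02 FPKM in Tmem173iΔmye tumors, and its log2 fold change was 0.25 (SE 0.30). All 3 were lowest in Tmem173fl/fl replicate 2, and the groups overlapped for each.

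**Figure D2:**
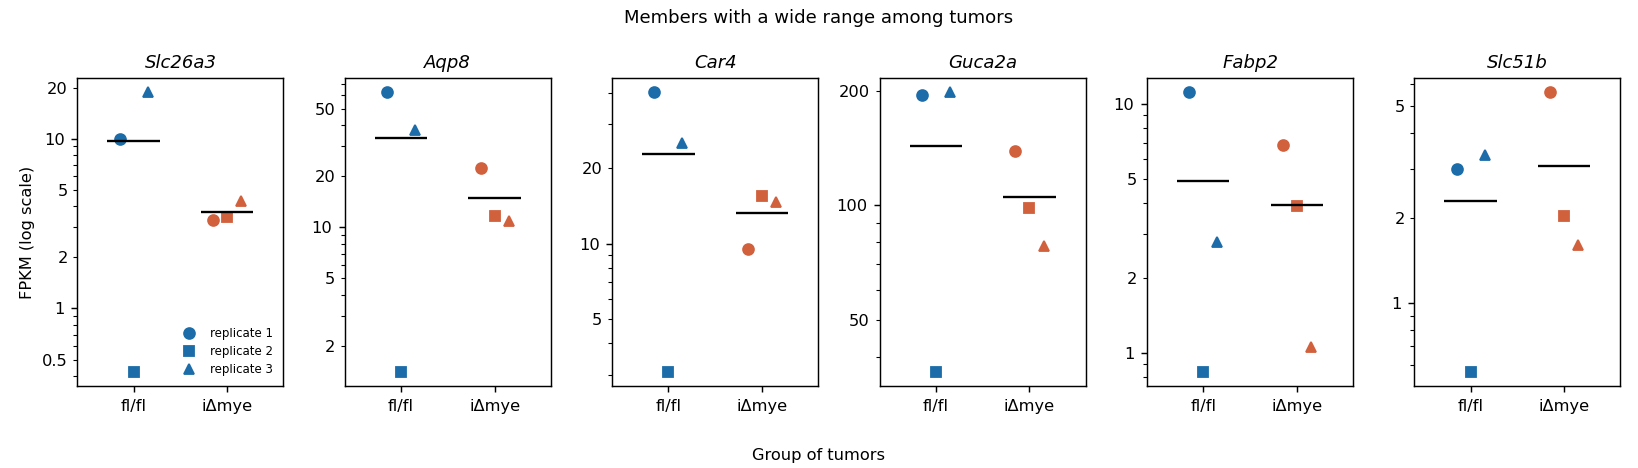
FPKM on a log scale of the 5 members with the widest range among tumors, and of Guca2a, in the Tmem173fl/fl (fl/fl, blue) and Tmem173iΔmye (iΔmye, orange) tumors. Points are tumors, shapes are replicate numbers and lines are group means; replicate 2 of the Tmem173fl/fl group is the lowest point in all 6 panels.

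The proximal sequences of 4 members that were low in that tumor and of the sodium channel genes Scnn1b and Scnn1g are shown so that their promoters can be compared. Each covers the 150 bases before the transcript start in RefSeq on GRCm38.p6, written 5′ to 3′ in lower case, with capitals for letters that match the TATA motif TATAAA or the HNF4 motif CAAAGGTCA.
Slc26a3, chr12:31438069-31438218, plus strand: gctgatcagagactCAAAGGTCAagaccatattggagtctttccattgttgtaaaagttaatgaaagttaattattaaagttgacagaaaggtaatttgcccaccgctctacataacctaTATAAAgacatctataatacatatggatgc
Aqp8, chr7:123462144-123462293, plus strand: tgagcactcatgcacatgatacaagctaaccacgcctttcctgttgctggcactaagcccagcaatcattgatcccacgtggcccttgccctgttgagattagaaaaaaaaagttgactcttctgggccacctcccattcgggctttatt
Car4, chr11:84957604-84957753, plus strand: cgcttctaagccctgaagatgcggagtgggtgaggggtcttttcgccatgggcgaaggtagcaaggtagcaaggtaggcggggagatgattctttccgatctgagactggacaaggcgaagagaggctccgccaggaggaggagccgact
Guca2a, chr4:119637582-119637731, plus strand: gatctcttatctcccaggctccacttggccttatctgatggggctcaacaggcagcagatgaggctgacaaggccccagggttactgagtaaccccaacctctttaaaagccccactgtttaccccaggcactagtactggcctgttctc
Scnn1b, chr7:121864888-121865037, plus strand: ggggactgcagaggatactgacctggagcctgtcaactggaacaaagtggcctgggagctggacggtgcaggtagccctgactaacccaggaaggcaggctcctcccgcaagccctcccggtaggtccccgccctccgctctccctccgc
Scnn1g, chr7:121734329-121734478, plus strand: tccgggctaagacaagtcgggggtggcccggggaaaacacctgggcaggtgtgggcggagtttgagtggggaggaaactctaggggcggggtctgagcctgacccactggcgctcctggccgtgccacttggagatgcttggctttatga
Of the 36 members, 24 matched the promoter table, and 250 bases before the start were searched on both strands in 32851 promoters. TATAAA stood in 12.4% of all promoters and, among the members, in that of Slc26a3 alone, at -30. The motif CAAAGGTCA stood in 0.426% of all promoters and again only in Slc26a3 among the members, at -136, while CAAAGTCCA stood in 0.384% of all and in 0 members. The CDX motifs were CAATAAA, in 4.2% of all promoters and in Ceacam20 and Fabp2, and TAATAAA, in 4.52% of all and in Ceacam20 and Slc5a8. The RefSeq start of Slc26a3 lies within the longer gene that the deposited table lists from 31390871 to 31473917. The printed sequences of Slc26a3, Aqp8, Guca2a and Car4 had 34%, 48.7%, 54% and 58.7% G and C, and those of Scnn1b and Scnn1g had 66% and 63.3%.

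The sodium-proton exchangers and their scaffold differed in which tumor was lowest. Slc9a3, which carries most of the electroneutral sodium uptake, had 46.22, 53.33 and 78.04 FPKM in Tmem173fl/fl and 34.65, 101.59 and 74.64 FPKM in Tmem173iΔmye tumors, so the widest spread was within the Tmem173iΔmye group. Its scaffold protein Slc9a3r1 had 76.89, 50.55 and 60.07 FPKM in Tmem173fl/fl and 85.92, 73.80 and 64.10 FPKM in Tmem173iΔmye tumors, and its log2 fold change was 0.25 (SE 0.19). Slc9a2, a second exchanger, had 10.23, 5.08 and 11.43 FPKM in Tmem173fl/fl and 7.67, 7.97 and 9.25 FPKM in Tmem173iΔmye tumors. The control tumors of Slc9a2 lay on both sides of the Tmem173iΔmye tumors, with replicate 2 lowest as for Slc26a3.

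The epithelial sodium channel has an alpha, a beta and a gamma subunit, encoded by Scnn1a, Scnn1b and Scnn1g, and aldosterone acts on the beta and gamma subunits in the colon. Scnn1g had 1.90, 1.41 and 2.53 FPKM in Tmem173fl/fl and 1.12, 0.67 and 1.21 FPKM in Tmem173iΔmye tumors, from 32 to 127 counts per tumor. Every Tmem173iΔmye tumor was below every control, and the log2 fold change was -0.97 (SE 0.35, adjusted p = 0.742 from edgeR). Scnn1b had 6.71, 5.74 and 11.10 FPKM in Tmem173fl/fl and 4.73, 3.85 and 5.75 FPKM in Tmem173iΔmye tumors. Here the groups met at 5.74 and 5.75 FPKM, and the log2 fold change was -0.72 (SE 0.29, adjusted p = 0.742 from edgeR). Scnn1a was much the most abundant subunit and overlapped, with 16.73, 14.23 and 17.44 FPKM in Tmem173fl/fl and 12.72, 15.82 and 17.22 FPKM in Tmem173iΔmye tumors and a log2 fold change of -0.08 (SE 0.16).

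Scnn1g and Scnn1b lie beside each other on chromosome 7 of GRCm38, at 121734479 to 121768475 and 121865038 to 121918514 on the plus strand. Scnn1b overlaps Cog7 on the other strand, and whether the counting used strand is not given in the sources used here. The unadjusted p of Scnn1g stayed under 0.05 in 4 of 6 fits that left out 1 tumor and was lost without Tmem173fl/fl replicate 3 or Tmem173iΔmye replicate 2. Scnn1b kept it in 3 of 6 and lost it without Tmem173fl/fl replicate 3, Tmem173iΔmye replicate 1 or Tmem173iΔmye replicate 2, and its log2 fold change then ran as close to 0 as -0.38.

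Of the chloride secretion genes, Cftr, the apical chloride channel, was the only one with separated groups. It had 5.0, 5.78 and 4.58 FPKM in Tmem173fl/fl and 6.10, 6.29 and 9.07 FPKM in Tmem173iΔmye tumors. All 3 Tmem173iΔmye tumors were above all controls, by a small margin in replicates 1 and 2, and the log2 fold change was 0.48 (SE 0.19, adjusted p = 0.742 from edgeR). An unadjusted p under 0.05 was kept in 3 of 6 fits without 1 tumor and lost without Tmem173fl/fl replicate 1, Tmem173fl/fl replicate 3 or Tmem173iΔmye replicate 3. Slc12a2, which loads chloride across the basolateral membrane, had 85.40, 121.35 and 71.76 FPKM in Tmem173fl/fl and 85.95, 63.09 and 84.40 FPKM in Tmem173iΔmye tumors. Kcnq1, a potassium channel subunit that supports secretion, ranged from 19.08 to 29.80 FPKM in Tmem173fl/fl and from 20.62 to 26.29 FPKM in Tmem173iΔmye tumors. Both had their highest level in Tmem173fl/fl replicate 2, the tumor that held the lowest level of 15 of 35 members.

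**Figure D3:**
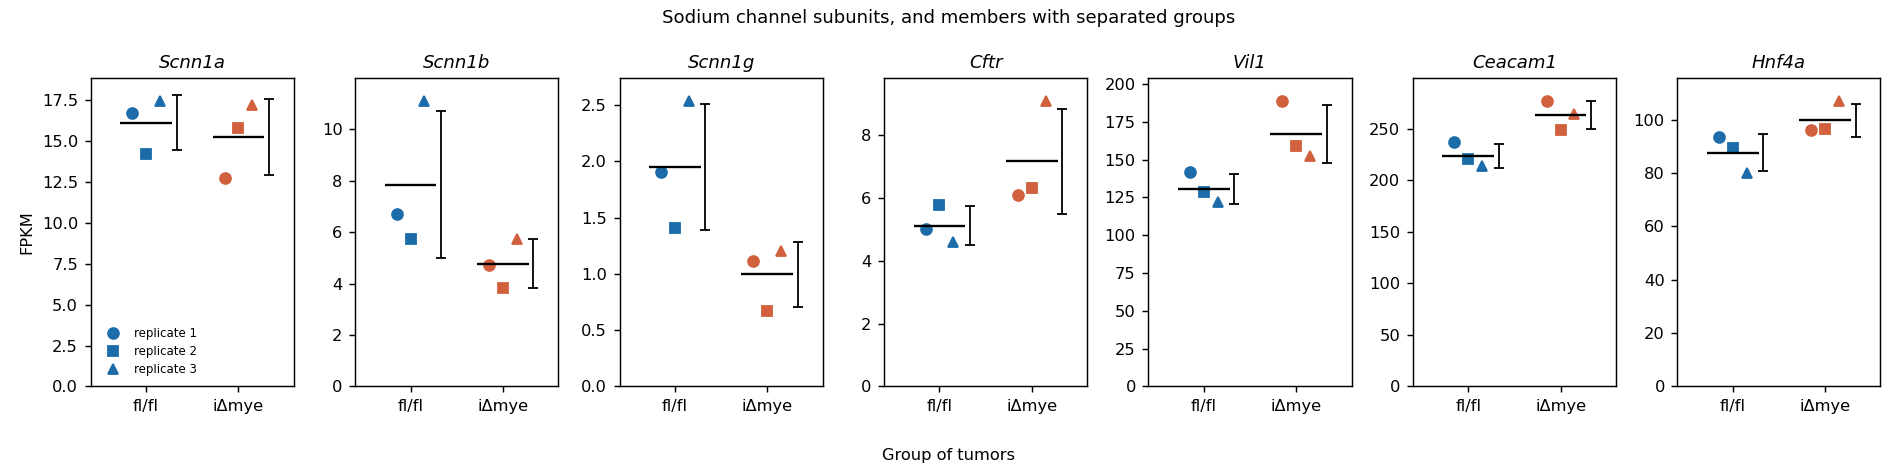
FPKM of the 3 sodium channel subunits and of the 4 members whose groups did not overlap in the higher direction, in the Tmem173fl/fl (blue) and Tmem173iΔmye (orange) tumors. Points are tumors, shapes replicate numbers, horizontal lines group means and vertical bars SD (n = 3); Scnn1g is the only member with every Tmem173iΔmye tumor below every control.

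Of the 7 brush border and adhesion genes, 6 had a log2 fold change above 0. Vil1, the actin bundler of microvilli, had 141.46, 128.27 and 122.15 FPKM in Tmem173fl/fl and 188.53, 159.02 and 152.46 FPKM in Tmem173iΔmye tumors. The groups did not overlap, and the log2 fold change was 0.35 (SE 0.15, adjusted p = 0.742 from edgeR), with an unadjusted p under 0.05 in 1 of 6 fits without 1 tumor. That fit left out Tmem173fl/fl replicate 1. Ceacam1 had 236.60, 220.67 and 213.85 FPKM in Tmem173fl/fl and 276.53, 249.00 and 264.28 FPKM in Tmem173iΔmye tumors, again without overlap and with a log2 fold change of 0.23 (SE 0.15). Reads of Ceacam1 may be shared with its near-identical neighbour Ceacam2, and Vil1 overlaps Usp37 on the other strand, so both levels are uncertain to that extent. The microvillar cadherins Cdhr2 and Cdhr5 had log2 fold changes of 0.26 (SE 0.15) and 0.24 (SE 0.16), Ceacam20 had 0.24 (SE 0.17) and Cdh17, a lateral cadherin, had 0.05 (SE 0.16). Mep1a, an apical metalloprotease, was the exception by sign, with 10.05, 4.72 and 12.68 FPKM in Tmem173fl/fl and 4.83, 9.31 and 10.10 FPKM in Tmem173iΔmye tumors.

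By groups that did not overlap in CPM (counts scaled to TMM library sizes), 4 of 35 members were higher in Tmem173iΔmye tumors, against 6.03% of all genes tested, and 1 was lower, against 6.47%. The 4 were Cftr, Vil1, Ceacam1 and Hnf4a, and the 1 was Scnn1g. Hnf4a, a nuclear receptor that drives enterocyte genes, had 93.56, 89.35 and 79.90 FPKM in Tmem173fl/fl and 95.97, 96.39 and 106.93 FPKM in Tmem173iΔmye tumors. These differ by a log2 fold change of 0.19 (SE 0.14), a small step over a steady level. Cdx2, a homeobox factor that sets intestinal identity, varied far more, with 32.90, 8.60 and 14.80 FPKM in Tmem173fl/fl and 31.08, 28.39 and 19.82 FPKM in Tmem173iΔmye tumors. Its relative Cdx1 had 68.08, 65.54 and 66.73 FPKM in Tmem173fl/fl tumors and a wider range, from 49.22 to 89.64 FPKM, in Tmem173iΔmye tumors.

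The guanylin peptides and their receptor differed in how much they varied. Guca2a, the precursor of guanylin, had 194.96, 36.34 and 197.89 FPKM in Tmem173fl/fl and 138.86, 98.28 and 78.33 FPKM in Tmem173iΔmye tumors, a log2 fold change of -0.45 (SE 0.55). Guca2b, the precursor of uroguanylin and its neighbour on chromosome 4, had 22.88, 12.22 and 18.10 FPKM in Tmem173fl/fl and 23.88, 11.85 and 14.12 FPKM in Tmem173iΔmye tumors. Gucy2c, the receptor, stayed between 24.19 and 34.03 FPKM in all 6 tumors, also in the control tumor with little Guca2a.

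The carriers of butyrate and the ion pumps overlapped between the groups. Slc5a8, a sodium-coupled monocarboxylate transporter, ranged from 7.52 to 14.25 FPKM in Tmem173fl/fl and from 7.05 to 15.50 FPKM in Tmem173iΔmye tumors. Slc16a1, a proton-coupled one, had 36.39, 24.63 and 35.95 FPKM in Tmem173fl/fl and 31.17, 26.56 and 33.66 FPKM in Tmem173iΔmye tumors. The log2 fold changes of Slc5a8 and Slc16a1 were 0.06 (SE 0.33) and -0.09 (SE 0.19). Atp12a, the colonic proton-potassium pump, had 26.57, 26.06 and 14.67 FPKM in Tmem173fl/fl and 17.98, 18.07 and 20.11 FPKM in Tmem173iΔmye tumors, a log2 fold change of -0.26 (SE 0.22). Atp1b1 had 276, 268 and 258 FPKM in Tmem173fl/fl and 194, 262 and 258 FPKM in Tmem173iΔmye tumors, level but for 1 tumor, and a log2 fold change of -0.17 (SE 0.17). Fabp2, a cytosolic fatty acid carrier, had 11.14, 0.83 and 2.78 FPKM in Tmem173fl/fl and 6.85, 3.89 and 1.05 FPKM in Tmem173iΔmye tumors. It had 12 to 168 counts per tumor and a log2 fold change of -0.33 (SE 0.92). Slc51b had 2.98, 0.57 and 3.36 FPKM in Tmem173fl/fl and 5.59, 2.03 and 1.61 FPKM in Tmem173iΔmye tumors, from 6 to 63 counts.

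Without Tmem173fl/fl replicate 2 (each tumor was left out in turn), 22 of 35 members were below 0, and the members' median log2 fold change was -0.053. An unadjusted p under 0.05 was then found for 8 members that were lower, against 3.56% of all genes tested, namely Aqp8, Car4, Guca2a, Scnn1b, Scnn1g, Slc26a2, Slc26a3 and Slc9a2, and for 1 that was higher, Cftr. Of the 8, 4 were also lower by 1 or more on the log2 scale. Over all genes tested, 1.13% met both conditions. The log2 fold change was -1.96 (SE 0.27) for Slc26a3, -1.76 (SE 0.37) for Aqp8, -1.31 (SE 0.28) for Car4 and -1.16 (SE 0.34) for Scnn1g. The adjusted p of each of the 4 was 0.745 from edgeR, with 2 control tumors left. This tumor was singled out because it held the lowest level of many members, Aqp8, Car4, Guca2a, Slc26a3 and Slc9a2 of the 8 among them. It was also the lowest control for Scnn1b, Scnn1g and Slc26a2. Leaving it out therefore lowers the fold changes of all 8 by construction, and the counts are a description. Without Tmem173fl/fl replicate 1, 4 members were higher and 2 lower at an unadjusted p under 0.05, and 22 of 35 were above 0. In that fit 1665 of 16426 genes had such a p in either direction. Without Tmem173fl/fl replicate 3, 1 member, Atp12a, had such a p, against 535 of 16426 genes. Dividing by the pan-epithelial level instead, with all 6 tumors kept, moved Slc26a3 from -1.40 to -1.34 and Aqp8 from -1.19 to -1.13 as the log2 ratio of group means.

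**Figure D4:**
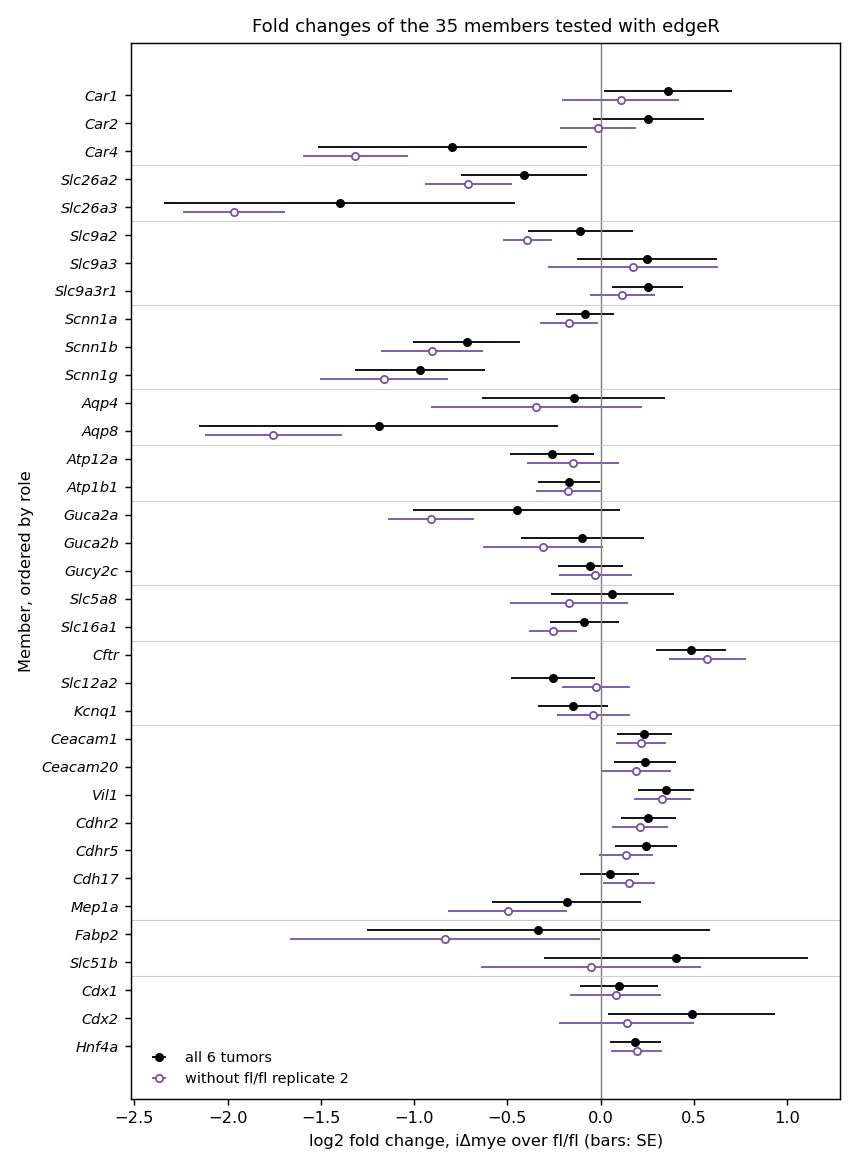
The log2 fold change of Tmem173iΔmye over Tmem173fl/fl tumors for the 35 members, ordered by role, from edgeR with all 6 tumors (black) and without Tmem173fl/fl replicate 2 (open, purple); bars are SE. The widest bars with all tumors are those of Aqp8, Slc26a3, Fabp2 and Car4, and without that tumor Slc26a3, Aqp8 and Car4 lie at -1.96, -1.76 and -1.31 with bars under 0.4.

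Lists of other epithelial cells differed in where that control tumor stood. Of 8 proliferation genes, 4 were highest there, against 26.6% of all genes tested, and their summed level was 687 to 1317 CPM in Tmem173fl/fl and 807 to 1163 CPM in Tmem173iΔmye tumors. Mki67, a marker of cycling cells, had 18.73, 40.32 and 16.24 FPKM in Tmem173fl/fl and 25.88, 19.16 and 19.90 FPKM in Tmem173iΔmye tumors. Of the goblet cell genes, 5 of 8 were lowest in that tumor, against 27.1% of all genes tested, with a summed level of 2018 to 5599 CPM in Tmem173fl/fl and 2901 to 4471 CPM in Tmem173iΔmye tumors. Enteroendocrine genes had 1 of 5 lowest and 0 highest there, and stem cell genes 0 of 8 lowest and 3 highest. The part of these lists in the members' levels was not tested. Leukocyte genes, 10 in all, summed to 203 to 472 CPM in Tmem173fl/fl and 365 to 770 CPM in Tmem173iΔmye tumors, with 5 of 10 lowest in Tmem173fl/fl replicate 2. Smooth muscle genes summed to 304 to 428 CPM and 218 to 385 CPM, 6 of 8 of them lower by sign in Tmem173iΔmye tumors, which was not tested against the members either.

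Other genes of ion and solute transport in the same cells gave a similar picture. Of 50 listed, 44 were tested, 15 were above 0 and 29 below, the median log2 fold change was -0.10, and 1 had an unadjusted p under 0.05. This was Prkg2, the kinase that carries the guanylin signal from Gucy2c to CFTR and Slc9a3, with 18.31, 25.99 and 20.88 FPKM in Tmem173fl/fl and 9.60, 15.47 and 15.36 FPKM in Tmem173iΔmye tumors. No Tmem173iΔmye tumor reached a control, and the log2 fold change was -0.69 (SE 0.22, adjusted p = 0.742 from edgeR). Kcne3, the beta subunit that opens KCNQ1 for secretion, had 66.68, 72.89 and 40.63 FPKM in Tmem173fl/fl and 110.32, 73.36 and 81.17 FPKM in Tmem173iΔmye tumors, without overlap and with a log2 fold change of 0.55 (SE 0.25). The nearest Kcne3 levels of the groups were 72.89 and 73.36 FPKM. By groups that did not overlap in CPM, 3 of the 44 were higher and 3 lower, against 6.03% and 6.47% of all genes tested. Car12, a membrane carbonic anhydrase, had a log2 fold change of 0.74 (SE 0.32).

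Of 40 other absorptive cell and brush border genes, 38 were tested, with 18 above 0, 20 below and a median log2 fold change of -0.03. An unadjusted p under 0.05 was found for Mep1b, the partner of Mep1a, at 0.75 (SE 0.30), and for Ugt2b34 and Dpp4, at -0.42 (SE 0.15) and -0.54 (SE 0.21). In this list 24 of 38 genes (63.2%) were lowest in Tmem173fl/fl replicate 2, against 14 of 44 (31.8%) of the other transport genes, 7 of 18 (38.9%) of the other transcription factors and 27.1% of all genes tested. Cyp2c55, named after its values were seen, had 32.35, 2.48 and 45.65 FPKM in Tmem173fl/fl and 10.07, 5.95 and 7.20 FPKM in Tmem173iΔmye tumors, again with a pair of high controls and Tmem173fl/fl replicate 2 lowest. Of 20 other transcription factors, 18 were tested, 13 were below 0, and Ppargc1a alone had an unadjusted p under 0.05, at -0.69 (SE 0.29).

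The tumors also differed in Y-linked reads, which were at 0 to 2 counts in 3 tumors and at 2655 to 3547 counts in the other 3. Of the 3 with such reads, 1 was Tmem173fl/fl (replicate 1) and 2 were Tmem173iΔmye (replicates 1 and 2). The X-linked gene Xist went the other way, with 2 to 11 counts in the 3 tumors with Y-linked reads and 19712 to 26549 counts in the 3 without. The comparison of these tumors was made after the values were seen, and these 2 groups of 3 hold unequal numbers of each genotype. Of 35 members, 6 were higher in every tumor with Y-linked reads than in every tumor without, against 9.7% of all genes tested. In the other direction 0 members were lower, against 1289 of the 16426 genes. The 6 higher members were Aqp4, Car1, Slc9a3r1, Ceacam20, Fabp2 and Cdx2. With genotype as a term, the log2 difference of Aqp4 was 1.44 (SE 0.14, adjusted p = 0.043 from edgeR). The 7 genes under that threshold were Xist, 5 Y-linked genes and Aqp4. No fit that left out 1 tumor kept the adjusted p of Aqp4 under 0.05, and it ran from 0.105 to 0.851 there. Fabp2, Cdx2 and Car1 had log2 differences of 2.50 (SE 0.51), 1.05 (SE 0.27) and 0.77 (SE 0.27), each with an adjusted p of 0.840 from edgeR.

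**Figure D5:**
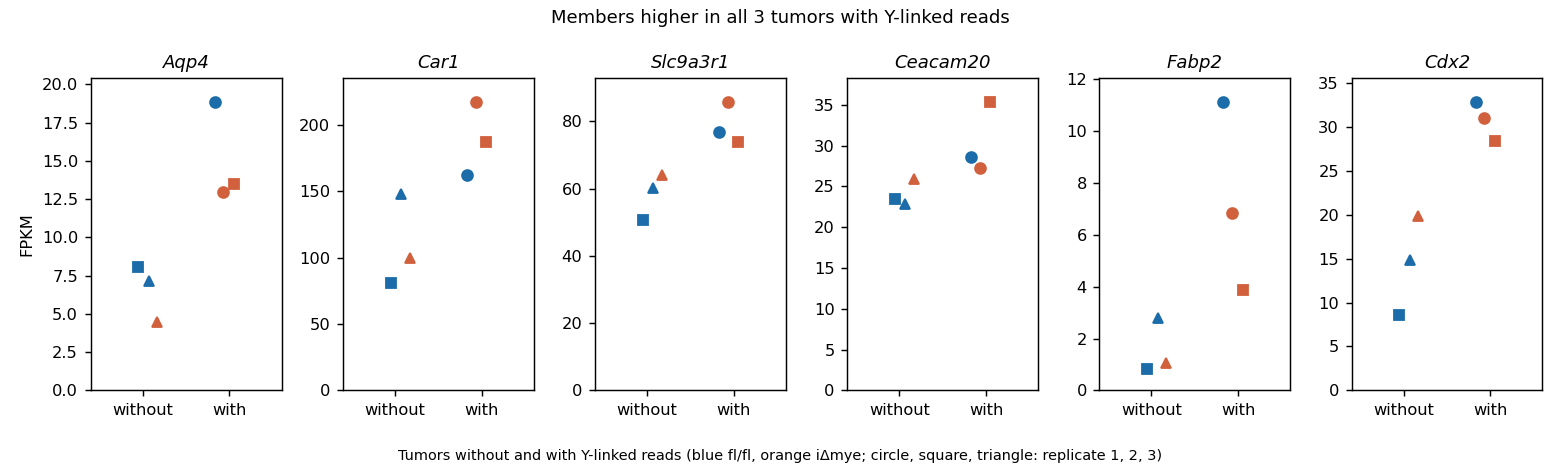
FPKM of the 6 members that were higher in each of the 3 tumors with Y-linked reads than in each of the 3 without, chosen by that pattern. Blue points are Tmem173fl/fl and orange points Tmem173iΔmye tumors, and circles, squares and triangles are replicates 1, 2 and 3; Aqp4 is at 12.97 to 18.87 FPKM in tumors with and 4.48 to 8.08 FPKM in tumors without Y-linked reads.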

How the data were processed

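RNA was isolated from whole tumors and sequenced as polyA libraries. The submitters' processing notes name CASAVA 1.8, fastp, HISAT2 2.0.5, featureCounts 1.5.0-p3 and DESeq2 1.20.0, with GRCm38 and mm10 as builds. The authors deposited raw counts per gene and FPKM values. The deposited FPKM equal counts over gene length and median-of-ratios size factors, up to 1 constant (largest relative difference 5.0e-07). The table's columns of the authors' own comparison hold fold changes and p-values and were not used. Each table column was matched to its sample by title.

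Members and lists were chosen with earlier results of these data known. Counts were tested with edgeR 4.0.16 (quasi-likelihood test, TMM, group as the only term, Benjamini-Hochberg over the 16426 genes at a mean FPKM of 0.5 or more) in R 4.3.3. SE is the absolute log2 fold change over the square root of F. Named with values in every tumor were members whose groups did not overlap, with an unadjusted p under 0.05 or most abundant in their role, and up to 3 genes of each other list by p; further genes were added where a result turned on them. Alternatives were median-of-ratios scaling, DESeq2 1.42.0, limma 3.58.1 on log2(FPKM + 1) and log2(FPKM + 0.1), no filter, a filter at a mean FPKM of 1, the replicate number as a block, Y-linked counts as a covariate, scaling to 10 pan-epithelial genes and leaving out each tumor. Same-numbered tumors had correlations of deviations of 0.274, 0.00022 and 0.137, so the numbers were not taken as pairs. Scripts were tested on simulated counts. Nothing states that the tumors came from separate litters or experiments. The p-values set each group difference against the variation among these 3 tumors per group, estimated with information shared over genes. Depth was 15329810 to 16533732 counts per tumor. Protein sequences were not used here.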

Additional observations from a re-analysis of the deposited data

How the results depend on the processing

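The count of members with an adjusted p under 0.05 was 0 under all 15 alternatives. Of the 35 members, 21 kept the sign of their log2 fold change in all of them, as did the 7 other genes named with a fold change. The number of genes with an unadjusted p under 0.05 and a log2 fold change of 1 or more in size, 349 with all tumors, was 131 with limma on log2(FPKM + 1), 872 with no filter, which tests more genes, 211 with Y-linked counts as a covariate and 218 to 636 when 1 tumor was left out. Members with an unadjusted p under 0.05, 4 with all tumors, were 2 with limma on log2(FPKM + 1), 1 on log2(FPKM + 0.1) and 1 to 9 when 1 tumor was left out. The lowest count came without Tmem173fl/fl replicate 3 or Tmem173iΔmye replicate 2, and the highest without Tmem173fl/fl replicate 2. Over all 16426 genes, such a p was found for 535 to 1665 genes when 1 tumor was left out. In these fits without 1 tumor, members past both limits were 0 to 4, and the members' median log2 fold change ran from -0.053 to 0.101, the latter without Tmem173fl/fl replicate 1. The cause of these shifts was not tested. With the replicate block, which the check of the numbers did not call for, 377 genes passed both limits, 4 members had an unadjusted p under 0.05 and the members' median was -0.059. The same 4 members were under that limit with and without the block, and the count over all genes went from 1008 to 1504, with Car12 and Kcne3 now among them (adjusted p = 0.388 and 0.472 from edgeR). With Y-linked counts as a covariate, 3 members had an unadjusted p under 0.05, Cftr, Scnn1g and Aqp4, against 553 of 16426 genes. Scnn1b and Vil1 lost it. The log2 fold change of Aqp4 by genotype was -0.64 in that fit, that of Fabp2 -0.95 and that of Car1 0.056, each with an adjusted p of 1 from edgeR.

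The sign of these members turned when 1 tumor was left out: Car2 ran from -0.016 to 0.57, Slc9a2 from -0.39 to 0.11, Slc9a3 from -0.12 to 0.57, Scnn1a from -0.18 to 0.030, Aqp4 from -0.39 to 0.44, Guca2b from -0.46 to 0.13, Gucy2c from -0.21 to 0.046, Slc5a8 from -0.17 to 0.33, Slc16a1 from -0.26 to 0.010, Cdh17 from -0.042 to 0.15, Mep1a from -0.50 to 0.13, Fabp2 from -1.0 to 1.11, Slc51b from -0.35 to 0.78 and Cdx1 from -0.095 to 0.31. Fabp2 was also at 0.026 with limma on log2(FPKM + 0.1). The log2 difference of Aqp4 by Y-linked reads, an alternative split chosen after seeing the data, was 1.21 with no group term (adjusted p = 0.494 from edgeR), 1.29 with limma (adjusted p = 0.205) and 1.33 to 1.56 when 1 tumor was left out, and none of these fits passed the threshold. DESeq2 and the fit with no filter gave 1.44 each, with adjusted p-values of 2.33e-13 and 0.00658.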
